A study of Mus musculus with 8 samples.

Results

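The matrix metalloproteinases described here are Mmp2, Mmp3, Mmp9, Mmp11, Mmp14 and Mmp19, together with Timp1, Timp2, Timp3 and Timp4, which encode the 4 tissue inhibitors of metalloproteinases. They are 10 of the 49671 genes counted in whole back skin of mice, and all 10 had enough reads to enter the test across 19099 genes. They were chosen by family name and selected on the genotype contrast of these 8 libraries, because the counts of Mmp11 were much lower and those of Timp3 higher in the knockout. Their differences between genotypes are therefore given as descriptions, with a standard error (SE) and no p-value. The groups were 4 libraries from mice labelled wt/wt and 4 from mice labelled ko/ko at Flg, the gene of profilaggrin in the upper epidermis. All mice were 8 weeks old and the shaved back skin was taken whole. The sources used here do not name the knockout allele, the strain or the sex. They also do not say whether each library is from its own mouse, so a p-value measures the spread between these libraries, which may be technical. The comparison asks which transcripts of whole skin differ between the Flg genotypes.

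Matrix metalloproteinases are zinc-dependent enzymes that cut collagens, laminins, proteoglycans and many growth factor carriers outside the cell. They are made as inactive precursors, and other proteases switch them on. TIMP proteins bind the active site of these enzymes and block it, so that the activity in a tissue depends on the enzyme, its activation and the inhibitor together. In skin these enzymes are known from wound closure, hair growth, scarring and remodelling of dermis and fat, and fibroblasts are a main source of many of them.

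Promoter sequences from RefSeq (build GRCm38.p6, the mouse build also called mm10) were found for 7 of the 10 genes. Mmp2, Mmp9 and Mmp19 had no entry. Shown are the bases just upstream of the start site of Mmp11 and Mmp14, which stood lower without overlap between genotypes, of Timp3, which stood higher, and of Mmp3, the only member among the 7 with a match to the AP-1 motif. Capitals mark matches on either strand to 3 motifs, namely TGANTCA (AP-1), GGGCGG (GC box) and TATAA (TATA box).
Mmp11, minus strand, chr10:75932503-75932752: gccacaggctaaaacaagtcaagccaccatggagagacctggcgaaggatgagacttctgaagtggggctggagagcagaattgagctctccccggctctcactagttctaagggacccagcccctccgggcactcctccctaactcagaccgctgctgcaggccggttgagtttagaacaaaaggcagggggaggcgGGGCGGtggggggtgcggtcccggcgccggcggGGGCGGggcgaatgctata
Mmp14, plus strand, chr14:54431348-54431597: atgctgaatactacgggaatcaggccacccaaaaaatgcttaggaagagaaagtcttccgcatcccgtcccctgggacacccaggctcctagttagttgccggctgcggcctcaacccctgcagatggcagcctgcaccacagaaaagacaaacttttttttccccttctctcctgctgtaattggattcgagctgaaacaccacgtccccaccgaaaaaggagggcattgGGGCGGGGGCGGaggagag
Timp3, plus strand, chr10:86300162-86300371: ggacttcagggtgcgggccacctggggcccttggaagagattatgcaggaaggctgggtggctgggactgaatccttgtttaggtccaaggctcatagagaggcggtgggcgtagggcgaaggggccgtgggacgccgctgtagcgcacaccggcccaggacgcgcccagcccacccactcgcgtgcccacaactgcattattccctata
Mmp3, plus strand, chr9:7445572-7445821: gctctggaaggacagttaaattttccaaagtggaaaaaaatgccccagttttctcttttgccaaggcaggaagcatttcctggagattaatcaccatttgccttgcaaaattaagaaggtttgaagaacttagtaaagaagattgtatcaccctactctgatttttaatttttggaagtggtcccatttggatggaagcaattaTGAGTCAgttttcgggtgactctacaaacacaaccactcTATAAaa
The Timp1 window, not shown, held 1 GC box. The Mmp11 and Mmp14 windows each held 2, and 32.7% of the 32851 RefSeq promoter windows of 250 bases held at least 1. The share of windows with 2 was not counted. The Mmp14 pair lay end to end without overlapping. The Mmp3 window held 1 AP-1 match, which 6.75% of windows have, and 1 TATAA match, which 22.8% have. The Timp3 stretch was shortened to 210 bases because the deposited gene model starts further upstream, and it held none of the 3 motifs. In windows of 210 bases the shares are 5.84% for AP-1, 26.7% for the GC box and 18.6% for TATAA. GC content was 63.2% for Mmp11, 55.2% for Mmp14, 63.8% for Timp3 and 37.6% for Mmp3. A match of letters is a description of these windows, not a binding site.

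Library totals ranged from 18483242 to 38545957 counts. In CPM, which are counts scaled to the effective size of each library, wild type had 59.0 ± 9.77 of Flg and knockout 24.5 ± 1.97 (SD, n = 4 each), without overlap (log2 fold change -1.27 ± 0.12 SE, edgeR quasi-likelihood adjusted p = 0.00326). The mean Flg CPM of the knockout libraries was thus 41.6% of the wild-type mean, with between 461 and 1027 reads in each knockout library. Markers of keratinocytes summed to between 11847 and 15001 CPM per library and markers of fibroblasts to between 24126 and 38374 CPM, so that both were abundant in all 8 libraries. Markers of growing hair stayed between 34.4 and 61.2 CPM in 7 libraries and reached 109 CPM in knockout replicate 4. In whole tissue, fewer cells of a type and less RNA per cell cannot be told apart. Replicate numbers follow the order of the samples and pair nothing.

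Mmp11 encodes stromelysin-3, a secreted proteinase of connective tissue cells that furin activates before it leaves the cell. The gene (ENSMUSG00000000901) lies on chromosome 10 from 75923222 to 75932502 on the minus strand of mm10. In wild type its level was 109.7, 23.1, 75.5 and 84.1 CPM in replicates 1 to 4. In knockout it was 8.10, 6.96, 7.50 and 7.48 CPM. Every knockout library was below every wild-type library, and the lowest wild-type library, replicate 2, was still above the highest knockout library. The means were 73.1 ± 36.4 and 7.51 ± 0.469 CPM (SD, n = 4 each), so that knockout stood at 10.3% of wild type. The log2 fold change, knockout over wild type, was -3.28 ± 0.42 (SE). Raw reads ranged from 585 to 3797 in wild type and from 130 to 308 in knockout, so the lower group was still well counted. The spread differed between the genotypes as well: the highest library was 4.74 times the lowest in wild type and 1.16 times in knockout. The wild-type value rested on replicate 2, at 23.1 CPM, since the other wild-type libraries lay between 75.5 and 109.7 CPM. A wider spread in wild type was not particular to Mmp11. By the same measure it was also seen for Mmp2, Mmp9, Mmp19, Timp1, Timp3 and Timp4. Mmp3, Mmp14 and Timp2 had the wider spread in knockout.

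Mmp14 encodes a membrane-anchored proteinase that cuts fibrillar collagen at the cell surface and, with TIMP-2 as a bridge, activates the precursor of MMP-2. Its levels were 401, 294, 402 and 334 CPM in wild type and 185, 196, 256 and 211 CPM in knockout. The groups did not overlap, and knockout stood at 59.4% of wild type (log2 fold change -0.75 ± 0.13 SE). Mmp2, the gelatinase that Mmp14 activates, was at 649, 488, 758 and 571 CPM in wild type. It was at 376, 392, 549 and 423 CPM in knockout. Knockout replicate 3 lay above the lowest wild-type library, so the groups overlapped (log2 fold change -0.50 ± 0.16 SE, not called in the fit across all genes).

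Mmp3 encodes stromelysin-1, which cuts proteoglycans and laminin and can activate other precursors of the family. It was at 107, 182, 143 and 93 CPM in wild type and at 45.6, 57.5, 145 and 74.1 CPM in knockout. The lower libraries were those of knockout replicates 1, 2 and 4, while replicate 3 lay within the wild-type range (log2 fold change -0.71 ± 0.36 SE, not called). Mmp3 and Mmp2 were both highest of the knockout in replicate 3, as was Mmp14.

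Mmp19 and Mmp9 did not share that direction. Mmp19, a proteinase of resting epidermis and vessels, was at 30.2, 15.9, 24.3 and 26.4 CPM in wild type and at 31.1, 34.8, 38.8 and 38.8 CPM in knockout. The groups were apart by less than 1 CPM, between wild-type replicate 1 and knockout replicate 1 (log2 fold change 0.56 ± 0.17 SE, not called). Mmp9, the gelatinase that neutrophils and macrophages carry, was at 11.2, 13.2, 20.9 and 8.83 CPM in wild type and at 15.0, 13.6, 14.7 and 13.4 CPM in knockout. All knockout values lay inside the wild-type range (log2 fold change 0.07 ± 0.22 SE). Neutrophil markers summed to between 12.7 and 28.3 CPM in wild type, highest in replicate 3 as for Mmp9, and to between 14.9 and 19.8 CPM in knockout. In knockout the neutrophil sum was highest in replicate 3 and Mmp9 in replicate 1. Macrophage markers (3052 CPM) and mast cell markers (229 CPM) were likewise highest of wild type in replicate 3. Of the 8 neutrophil markers 5 were tested, 4 of these were below 0, 0 were called (edgeR, 2 at an unadjusted p under 0.05) and none was at 0 in every library. Their part in the Mmp9 values was not tested.

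Timp3 encodes the inhibitor that stays bound to the extracellular matrix and blocks ADAM and ADAMTS enzymes as well as the metalloproteinases. The gene (ENSMUSG00000020044) lies on chromosome 10 from 86300372 to 86349506 on the plus strand. It was at 275, 268, 309.7 and 300 CPM in wild type and at 489.9, 505, 516 and 492 CPM in knockout. All 4 knockout libraries stood above all wild-type libraries, with very little spread on either side: 288 ± 19.9 CPM (SD, n = 4) against 501 ± 12.2 CPM (SD, n = 4). Knockout stood at 174% of wild type (log2 fold change 0.80 ± 0.08 SE). Among the 10 genes, Timp3 had the smallest coefficient of variation in knockout, at 2.44%, and Timp2 the smallest in wild type, at 5.91%.

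Timp4, an inhibitor found mainly in heart, muscle and fat, was at 11.9, 2.29, 8.00 and 9.89 CPM in wild type and at 13.9, 18, 13.6 and 17.3 CPM in knockout. The groups did not overlap, but the wild-type spread was wide, with replicate 2 far below the rest (log2 fold change 0.96 ± 0.38 SE, not called). Timp2, the inhibitor that also takes part in activating MMP-2, was the most abundant of the 10 and nearly level, at 1038 ± 61.4 CPM in wild type and 1042 ± 119 CPM in knockout (SD, n = 4 each). Its log2 fold change was 0.01 ± 0.11 (SE). Timp1, which is induced by injury and inflammation, was low: 7.68, 2.45, 2.86 and 6.02 CPM in wild type and 3.42, 3.91, 4.37 and 4.38 CPM in knockout. Its knockout values lay inside the wild-type range (log2 fold change -0.26 ± 0.33 SE).

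**Figure D1:**
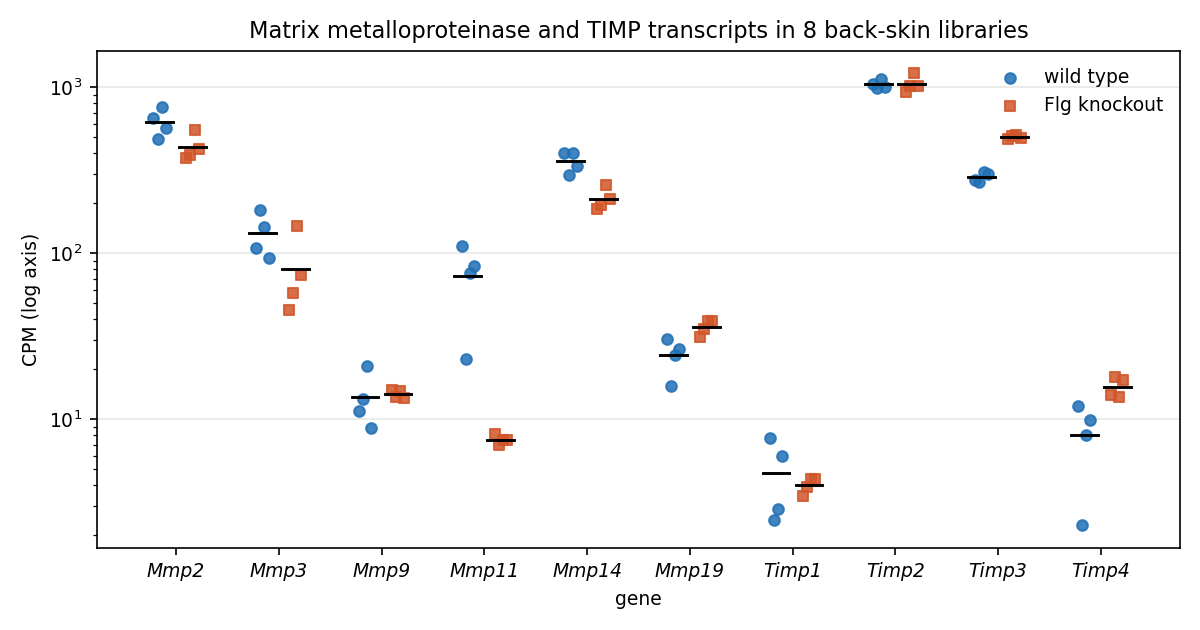
Level of each of the 10 genes in the 4 wild-type and 4 Flg knockout libraries, in CPM on a log axis; points are libraries and black lines are group means. Mmp11 lies between 23.1 and 109.7 CPM in wild type and between 6.96 and 8.10 CPM in knockout, and the Timp3 groups are narrow and apart.

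In the fit across all genes, 3 of the 10 were called at an adjusted p under 0.05 (Mmp11, Mmp14 and Timp3), where 1.41% of the 19099 genes tested were called. The direction of the calls was lower for 2 (0.702% of all genes) and higher for 1 (0.712% of all genes). The groups did not overlap in 5 of the 10 (Mmp11, Mmp14, Mmp19, Timp3 and Timp4), against 11.5% of all genes tested. Of these 5, 2 were lower in knockout (5.95% of all genes) and 3 higher (5.57% of all genes). Because the family was chosen with this contrast in view, nothing is read from these shares. The median log2 fold change of the 10 was -0.13, beside -0.02 over all genes tested. When 1 library was left out at a time, on the same libraries that chose the genes, the log2 fold change of Timp3 lay between 0.77 and 0.84. Mmp11 lost its call without knockout replicate 1, 2 or 4, where its log2 fold change was -3.32, -3.25 and -3.28. Mmp14 lost its call without wild-type replicate 1 or 4 (-0.69 and -0.78) or without knockout replicate 1, 2 or 4 (-0.69, -0.72 and -0.75). Over all genes, between 11 and 77 were called in those fits.

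**Figure D2:**
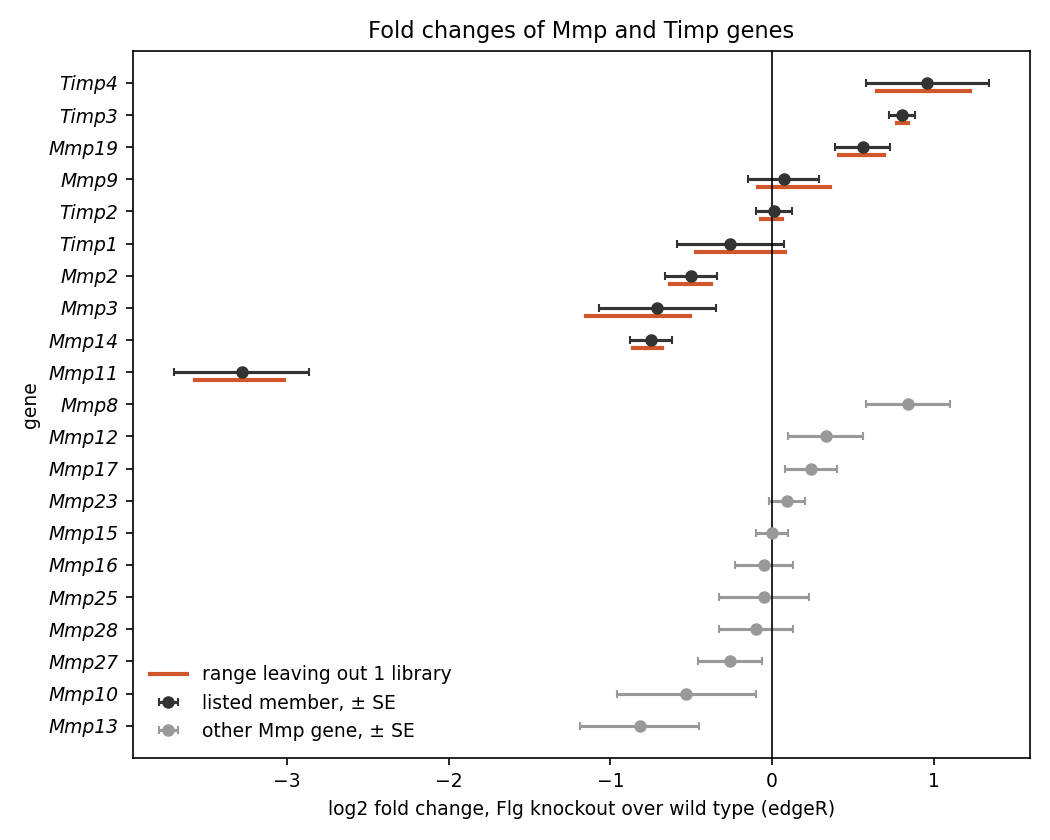
Log2 fold change (Flg knockout over wild type, edgeR, ± SE) of the 10 genes in black and of the 11 other Mmp genes tested in grey; orange lines span the fits that left out 1 library. Mmp11 stands at -3.28, and no other point is below -1, though the span of Mmp3 reaches -1.15 without knockout replicate 3.

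Levels of different genes were compared as CPM per kilobase (kb) of exon. In wild type Timp2 was highest at 266 ± 15.7 CPM per kb, followed by Mmp2 at 183 ± 34.2, Mmp14 at 83.2 ± 12.3 and Mmp3 at 72.8 ± 22.1 (SD, n = 4 each). Mmp14 and Mmp3 overlapped over libraries, whereas Timp2, Mmp2 and Mmp14 did not overlap with one another. Timp3 at 35.4 ± 2.44 and Mmp11 at 28.4 ± 14.1 came next and overlapped. Mmp19 at 7.11 ± 1.78, Timp1 at 5.35 ± 2.84 and Mmp9 at 3.82 ± 1.47 overlapped as neighbours, and Timp4 was lowest at 1.36 ± 0.702 CPM per kb. In knockout the order changed at 2 points. Timp3, at 61.5 ± 1.5 CPM per kb, stood above Mmp14 at 49.4 ± 7.26 without overlap. The Timp3 mean was also above that of Mmp3, at 44.7 ± 24.7. Knockout Mmp3 ranged from 25.3 to 80.4 CPM per kb and overlapped with Timp3. Mmp11, at 2.92 ± 0.182 CPM per kb, stood below Mmp9 at 4.0 ± 0.229 and overlapped with Timp4 at 2.66 ± 0.387 (SD, n = 4 each).

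**Figure D3:**
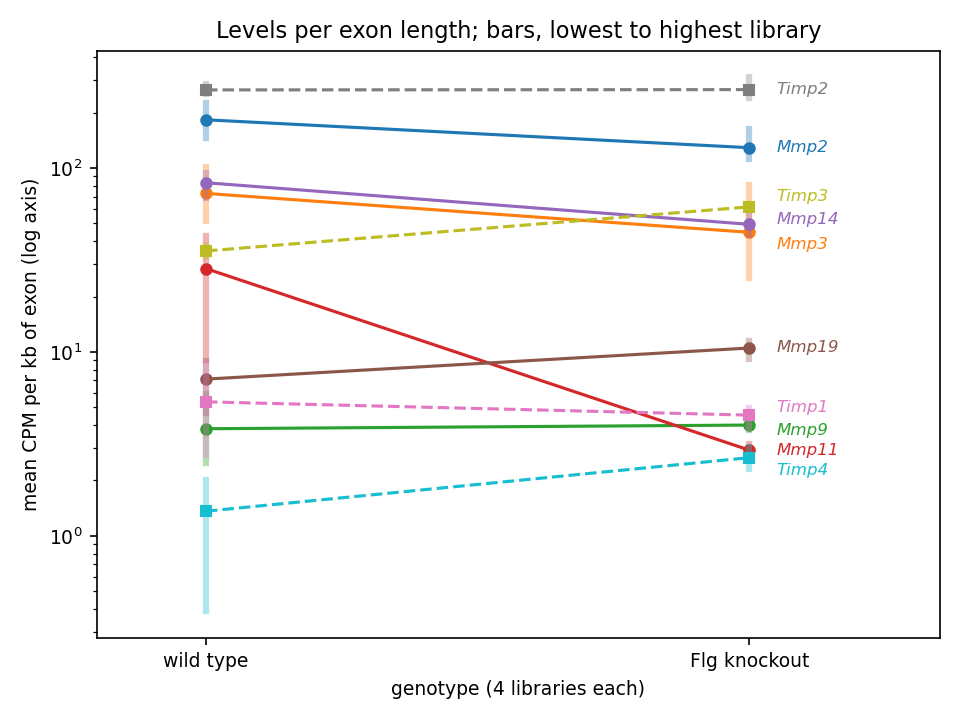
Mean level per kb of exon on a log axis in each genotype, circles for proteinases and squares for inhibitors; pale bars span the lowest to the highest of 4 libraries. The mean of Timp3 crosses above those of Mmp14 and Mmp3, though the knockout ranges of Timp3 and Mmp3 overlap. Mmp11 drops from the sixth to the ninth place.

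The balance of enzyme and inhibitor transcripts can be set out in each library from the same values. The 6 Mmp genes summed to 399.8, 332, 440 and 341 CPM per kb in wild type and to 197, 211, 321 and 234 in knockout, without overlap. The 4 Timp genes summed to 312, 288, 331 and 303 in wild type and to 306, 329.6, 381 and 327 in knockout, and overlapped. The ratio of the Mmp sum to the Timp sum was 1.22 ± 0.0993 in wild type and 0.710 ± 0.0951 in knockout (SD, n = 4 each). The ratio of Mmp14 to Timp3 was 2.76, 2.08, 2.46 and 2.11 in wild type, beside 0.717, 0.735, 0.941 and 0.814 in knockout. Thus the level of Mmp14 per kb was above that of Timp3 in all wild-type libraries and in none of the knockout ones. The ratio of Mmp2 to Timp2 was 0.683 ± 0.0887 against 0.481 ± 0.0328 (SD, n = 4 each). These are transcript ratios, they rest on the contrast that chose the genes, and protein or activity was not measured. Mmp11 made up 10.7, 2.71, 6.67 and 9.58% of the Mmp sum in wild type and between 0.907 and 1.6% in knockout. Timp3 made up between 10.8 and 12.2% of the Timp sum in wild type and between 16.6 and 19.7% in knockout.

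**Figure D4:**
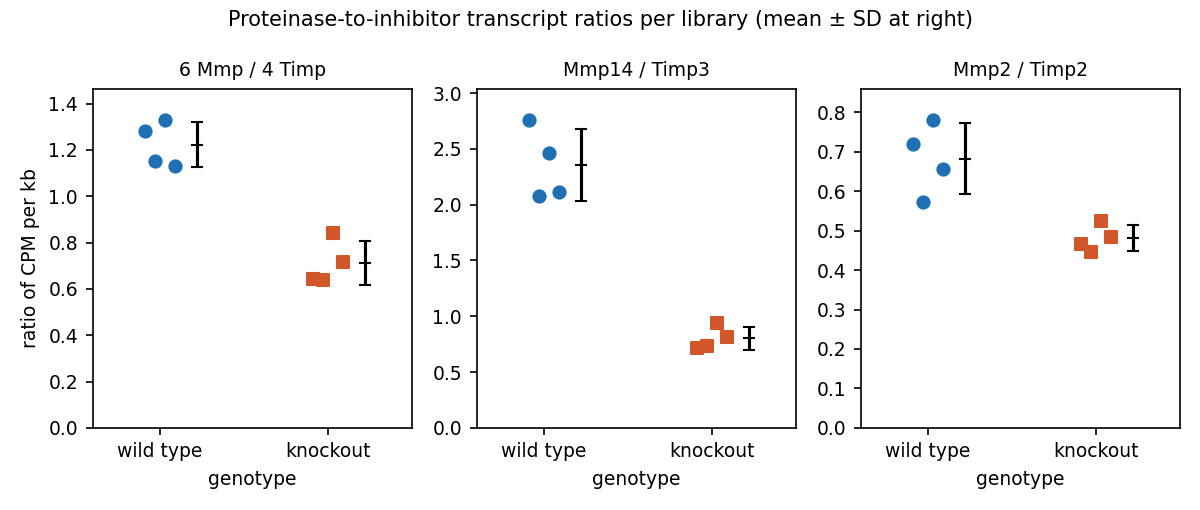
Ratios of transcript levels per kb in each library, for the 6 Mmp genes over the 4 Timp genes, Mmp14 over Timp3 and Mmp2 over Timp2, with the mean ± SD of 4 libraries beside the points. Mmp14 over Timp3 lies above 2 in every wild-type library and below 1 in every knockout library.

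How the genes vary from library to library within a genotype was not used to choose them. After each genotype's mean log2 CPM was subtracted, Mmp2 and Mmp14 deviated together over the 8 libraries (Pearson r = 0.97), as did Mmp2 and Timp2 (r = 0.91) and Mmp14 and Timp2 (r = 0.87). These 3 genes, whose proteins form the MMP-2 activation complex, were all highest of their genotype in wild-type replicate 3 and in knockout replicate 3. For Mmp14, wild-type replicates 1 and 3 were nearly level, at 401 and 402 CPM. The summed fibroblast markers were also highest of their genotype in those replicate 3 libraries, at 37989.5 and 38374 CPM (wild-type replicate 1, 37935 CPM). So were the summed matrix proteins and carriers that these enzymes cut, at 46469 and 45748 CPM. Both lists hold Col1a1, Col1a2, Col3a1 and Dcn, with wild-type means between 3096 and 10657 CPM. The sums of these lists are therefore not separate observations. The part of cell amounts in these correlations was not tested. Another set was made of Mmp11 with Timp4 (r = 0.96) and Mmp19 (r = 0.91), and of Timp4 with Mmp19 (r = 0.92). All 3 were lowest in wild-type replicate 2, where Mmp11 was 1.45 and Timp4 1.55 below the wild-type mean on the log2 scale. Between genotypes they went apart, since Mmp11 was lower and Timp4 and Mmp19 were higher in knockout. The correlations are descriptions over 8 libraries that share their totals and the 2 subtracted means.

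Without wild-type replicate 2, chosen for this check after its values were seen, r was 0.49 for Mmp11 with Timp4, 0.47 for Mmp11 with Mmp19 and 0.58 for Mmp19 with Timp4. The close relation of Mmp11 with Timp4 and Mmp19 thus rested on wild-type replicate 2. For Mmp11 with Timp3 r went from 0.45 to -0.92. In knockout Mmp11 deviated only by between -0.11 and 0.11 and Timp3 by between -0.03 and 0.04. That value therefore rested mainly on the wild-type libraries left, and no relation is read from it. In the same 7 libraries r was 0.95 for Mmp2 with Mmp14 and 0.96 for Mmp2 with Timp2. Mmp3 with Timp2 changed from 0.74 to 0.98, and Mmp3 with Mmp2 from 0.47 to 0.96.

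**Figure D5:**
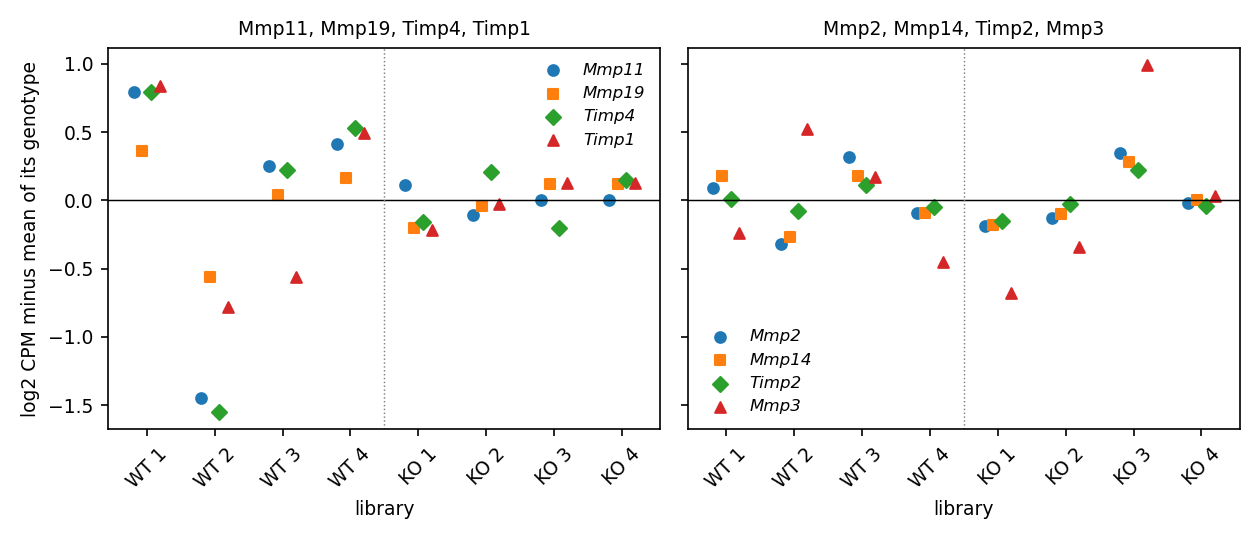
Log2 CPM minus the mean of its genotype for 8 of the genes in each library (WT, wild type; KO, Flg knockout). In the left panel wild-type replicate 2 is far below the rest for Mmp11 and Timp4, and in the right panel Mmp2, Mmp14 and Timp2 keep close together.

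By the same measure, the genes most like Mmp11 among the 15149 genes that have a symbol and average 1 or more in log2 CPM were Ret (r = 0.998), Ctsw, Fbln7, St3gal4 and Prkce (r = 0.99 each). Ret encodes a receptor tyrosine kinase of nerve and other cells and Ctsw a cathepsin of cytotoxic lymphocytes. Without wild-type replicate 2 their r was 0.998, 0.91, 0.88, 0.84 and 0.82. None of the 5 passed the edgeR test between genotypes: the log2 fold change was 0.44 ± 0.24 for Ret (SE, adjusted p = 0.347) and -0.89 ± 0.20 for Ctsw (SE, adjusted p = 0.0562). Those most like Timp3 were Snx24, Bdh1, Erg, Ccdc130 and Scn2b, with r between 0.93 and 0.96. None of these passed the edgeR test either, with log2 fold changes between -0.25 and 0.11 and adjusted p between 0.254 and 0.951. Timp3 itself deviated little from its genotype means, by between -0.1 and 0.11 in log2 CPM. The 5 genes named for Mmp11 and for Timp3 are the highest of 15149 over 8 libraries. How high r would run in such a search among unrelated genes was not tested, so no relation is read from it.

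Timp1, Timp3 and Timp4 lie within the synapsin genes Syn1, Syn3 and Syn2, each on the strand opposite to its host. In the deposited gene models 1733 of the 8144 exon bases of Timp3 (21.3%) are also exon of Syn3, and 90 of 5894 (1.53%) of Timp4 are also exon of Syn2. Timp1 shares no exon base with Syn1. The host genes were counted far less than Timp3: Syn3 had between 20 and 51 reads per library, beside between 6781 and 18618 for Timp3. The log2 fold change was 0.09 ± 0.26 for Syn3 (SE, edgeR adjusted p = 0.88), 0.58 ± 0.21 for Syn2 (adjusted p = 0.179) and -0.03 ± 0.26 for Syn1 (adjusted p = 0.96). At its 3-prime end Mmp19 shares 789 of 3410 exon bases (23.1%) with Tmem198b on the opposite strand, which had between 236 and 495 reads and a log2 difference between genotypes of -0.03 ± 0.13 (SE, edgeR adjusted p = 0.916). How reads in shared exons were assigned is not given in the sources used here, so the levels of Timp3, Timp4 and Mmp19 carry that uncertainty. Mmp11, Mmp14, Mmp2, Mmp3 and Mmp9 overlap no other gene of the table.

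The other 17 Mmp genes of the mouse were mostly low in back skin. None of the 11 with enough reads for the test was called (edgeR, 1 at an unadjusted p under 0.05, where 1.41% of all genes were called and 19.5% had such a p), and limma voom with quality weights called 1, Mmp8. Their median log2 fold change was -0.05, beside -0.02 over all genes. Per library, Mmp27 reached between 26.1 and 51.5 CPM, the membrane-anchored Mmp15 between 26.1 and 34.6 and Mmp23 between 30.2 and 40.9. Mmp8, the neutrophil collagenase, was at 0.313 ± 0.0483 CPM in wild type and 0.560 ± 0.0648 CPM in knockout (SD, n = 4 each), without overlap (log2 fold change 0.84 ± 0.26 SE, edgeR adjusted p = 0.124). Log2 fold changes were -0.82 ± 0.37 for the collagenase Mmp13 (SE, adjusted p = 0.257), 0.33 ± 0.23 for the macrophage elastase Mmp12 (adjusted p = 0.452) and, for Mmp17, 0.24 ± 0.16 (adjusted p = 0.457). Mmp1a, Mmp1b, Mmp7 and Mmp20 had 0 reads in all 8 libraries, which allows up to 3 reads, or 0.0778 CPM in the deepest and 0.162 CPM in the shallowest library, for counting error only. Mmp21 and Mmp24 had 19 and 16 reads in all and were not tested.

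Among the related ADAM and ADAMTS proteinases, many of which TIMP-3 inhibits, 26 of 27 were tested and 1 was called, higher in knockout (1.41% of all genes). This was Adam9, a membrane proteinase that sheds cell surface proteins, at 104 ± 12.6 CPM in wild type and 143 ± 7.70 CPM in knockout (SD, n = 4 each). Its log2 fold change was 0.46 ± 0.09 (SE, edgeR adjusted p = 0.0479), and all 4 knockout libraries were above all wild-type ones. The call was lost in 6 of the 8 fits that left out a library, those without wild-type replicate 1, without wild-type replicate 4 or without any knockout replicate, with adjusted p between 0.0686 and 0.131 and log2 fold changes between 0.43 and 0.52, and at equal depth (adjusted p = 0.0558). The list's median log2 fold change was -0.06. Adamts18 had -1.26 ± 0.29 (SE, adjusted p = 0.0592) and Adamts1, an aggrecan- and versican-cutting enzyme, 0.73 ± 0.23 (SE, adjusted p = 0.136), both without overlap between genotypes and not called. The same held for Adamts7, with -0.57 ± 0.20 (SE, adjusted p = 0.159). DESeq2 and voom called Adamts18 lower and Adamts1 higher. Adamts18 was also called without a filter and without wild-type replicate 2. Adam17, the shedding enzyme that TIMP-3 is best known to block, was at 137 ± 10.5 and 134 ± 4.25 CPM (SD, n = 4 each; log2 fold change -0.04 ± 0.08 SE, adjusted p = 0.83); it was named after its values were seen.

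Of 33 activating proteases, further inhibitors and binding partners, 30 were tested and 3 were called, all higher in knockout (0.712% of all genes), with a list median of 0.05. Spock1, a proteoglycan of the testican family, rose from 1.15 ± 0.257 to 3.09 ± 0.430 CPM (SD, n = 4 each; log2 fold change 1.43 ± 0.21 SE, edgeR adjusted p = 0.0154). Its call was lost without knockout replicate 2 (adjusted p = 0.0641) or 4 (adjusted p = 0.0683). Cav1, the coat protein of membrane caveolae, rose from 448 ± 31.6 to 619.7 ± 41.9 CPM (SD, n = 4 each; log2 fold change 0.47 ± 0.09 SE, adjusted p = 0.0414). Tll1, a procollagen C-proteinase of the tolloid family, rose from 11.7 ± 1.34 to 20.3 ± 4.08 CPM (SD, n = 4 each; log2 fold change 0.78 ± 0.16 SE, adjusted p = 0.044). The Cav1 call was lost without wild-type replicate 1 or 4 or any knockout replicate (adjusted p between 0.0531 and 0.132). The Tll1 call was lost in all fits without a library but those without wild-type replicate 3 or knockout replicate 1 (adjusted p between 0.0524 and 0.141). Cathepsin K (Ctsk), a collagen-cutting cysteine protease, stood at 671 ± 118 and 326 ± 121 CPM (SD, n = 4 each), without overlap, and was not called (log2 fold change -1.04 ± 0.23 SE, adjusted p = 0.0562), but was called lower without knockout replicate 3, with library totals only, and by DESeq2 and voom. Values of 3 regulators named after they were seen were nearly level: Furin, which activates MMP-11 and MMP-14, was at a log2 difference of -0.07 ± 0.11 (SE, adjusted p = 0.759). Reck, a membrane inhibitor of the family, had 0.13 ± 0.09 (SE, adjusted p = 0.482) and Bsg, an inducer of metalloproteinases, -0.06 ± 0.09 (SE, adjusted p = 0.777). Others of the list, also named after their values were seen, differed more and were not called. Thbs2 was at 0.71 ± 0.16 (SE, edgeR adjusted p = 0.0578) and Lrp1 at 0.51 ± 0.14 (SE, adjusted p = 0.1), both without overlap. Itgb3, with overlap, had 0.57 ± 0.15 (SE, adjusted p = 0.0935). DESeq2, voom and the fit without a filter called all of them higher. Of the 30 tested, 16 were above 0 and 14 below 0 (edgeR, 8 at an unadjusted p under 0.05).

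Among 28 matrix proteins and carriers that these enzymes cut, all were tested and 1 was called, lower in knockout (0.702% of all genes), with a list median of -0.02, equal to that over all genes. Igfbp3, a binding protein for insulin-like growth factors, fell from 314 ± 45.8 to 178 ± 26.8 CPM (SD, n = 4 each; log2 fold change -0.82 ± 0.13 SE, edgeR adjusted p = 0.0231). The call was lost when wild-type replicate 1 (adjusted p = 0.0565) or 4 (0.0665) was left out, and likewise for knockout replicates 2 (0.0995) and 4 (0.103). Log2 fold changes were -1.29 ± 0.29 for tenascin C (Tnc; SE, adjusted p = 0.0596), and for elastin (Eln) -1.12 ± 0.33 (SE, adjusted p = 0.127) and for perlecan (Hspg2) 0.43 ± 0.17 (SE, adjusted p = 0.195). Tenascin C was called lower by DESeq2, by voom, by the non-robust fit and without wild-type replicate 2. Elastin was called lower by voom and without wild-type replicate 2, and perlecan higher by voom. Like Mmp11, elastin was far lower in wild-type replicate 2 (124 CPM) than in the other wild-type libraries (between 333 and 427 CPM), and knockout lay between 127 and 188 CPM. The collagen VI gene Col6a3, whose protein MMP-11 is known to cut, was also lowest in wild-type replicate 2, at 306 CPM, and lay between 797 and 993 CPM in knockout (log2 fold change 0.44 ± 0.26 SE, adjusted p = 0.387). Col6a3 was named after its values were seen. A low wild-type replicate 2 was not particular to these genes. Tenascin C was at 19.9 CPM there and between 50.7 and 52 CPM in the other wild-type libraries. The sum of this list was 27588 CPM, against between 41147 and 46469 CPM. The ADAM and ADAMTS sum was 1266 CPM, against between 1606 and 1678 CPM. Mmp3 was instead highest of wild type in that library, at 182 CPM.

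Markers of other tissue parts are given beside these values, and 19.5% of all genes had an unadjusted p under 0.05. Of 19 adipocyte markers 17 were above 0 and 0 were called (edgeR, 14 at an unadjusted p under 0.05). Their summed level was 3385, 2465, 5011 and 3063 CPM in wild type and 5897, 5814, 3993 and 5323 CPM in knockout. It was highest of wild type in replicate 3 and lowest of knockout in replicate 3, and those libraries also had the highest Timp3 of their genotype, at 309.7 and 516 CPM. Mmp11 was highest of wild type in replicate 1 and, like the adipocyte sum, lowest in replicate 2. Smooth muscle markers, 6 of 8 above 0 and 0 called (edgeR, 4 at an unadjusted p under 0.05), summed to between 1400.1 and 1593 CPM in wild type and to between 1605 and 1874 CPM in knockout. Keratinocyte markers, 9 of 10 below 0 and 0 called (2 at an unadjusted p under 0.05), summed to between 14118 and 15001 CPM in wild type and to between 11847 and 13631 CPM in knockout. Of 12 fibroblast markers 4 were above 0 and 0 were called (3 at an unadjusted p under 0.05). Their sum, lowest in wild-type replicate 2 and highest of each genotype in replicate 3, overlapped between genotypes. Papilla and sheath markers of the hair follicle, 8 of 12 above 0 and 0 called (2 at an unadjusted p under 0.05), summed to between 173 and 204 CPM in wild type and to between 204 and 209.9 CPM in knockout.

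Macrophage markers had 1 of 10 called (Mrc1, higher, as were 0.712% of all genes), and their sum of between 2303 and 3052 CPM in wild type overlapped with between 2305 and 3372 CPM in knockout. Endothelial, mast cell, skeletal muscle and nerve markers had 0 called of 8, 6, 10 and 5 tested (edgeR, 2, 1, 3 and 0 at an unadjusted p under 0.05), and their sums overlapped between genotypes. Of 16 hair markers 15 matched a gene symbol (Krt85 did not), 9 were tested and 0 called (edgeR, 1 at an unadjusted p under 0.05). In knockout replicate 4, where their sum was 109 CPM, Mmp11 was at 7.48 CPM. No marker of these lists that matched a symbol was at 0 in every library. The part of cell amounts in the values of Mmp11, Mmp14 and Timp3 was not tested.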

How the data were processed

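Raw read counts per gene were deposited by the authors. The submitters' processing notes name GSNAP, mm10 and featureCounts 1.6.2. The labels name both a SMART and a directional library kit, and which of them made these libraries was not settled. How strand and multiply aligned reads were handled is not given in the sources used here. The table held 49763 features, of which 92 spike-in sequences (at most 1 read in a library) were left out. A table of gene identifiers and symbols gave a symbol for 49326 of 49671 genes.

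Genotypes were compared with edgeR 4.0.16 (R 4.3.3): filterByExpr, TMM factors, robust quasi-likelihood test, Benjamini-Hochberg adjustment over 19099 genes, threshold 0.05. SE were derived from the F statistic. The fit was tested on simulated data. CPM were computed from the deposited counts and TMM factors, CPM per kb with the deposited exon length, and log2 CPM with a prior count of 2. No replicate pair agreed within counting noise (smallest chi-square per degree of freedom 5.79, knockout replicates 2 and 4). Alternatives were other scalings, DESeq2 1.42.0, limma 3.58.1 voom, other or no filter, counts thinned to equal depth, and leaving out each library in turn.

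Members and lists were chosen with earlier results of these data known. Named were all members, of each list the called genes and those with the 4 smallest p, the synapsin hosts, overlapping genes, and the 5 genes most like Mmp11 and Timp3. Mmp15, Mmp23, Mmp27, Adam17, Furin, Reck, Bsg, Thbs2, Lrp1, Itgb3, Col6a3, Mrc1 and the Mmp genes at or near 0 reads were added after their values were seen.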

Additional observations from a re-analysis of the deposited data

Results flagged for a closer look

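Among 78 groups of 4 libraries examined, 2 had a library far from the others by Dixon's criterion, where chance gives about 1 in 20. The markers of growing hair summed to 109 CPM in knockout replicate 4, against 43.2 CPM in the nearest knockout library. The papilla and sheath markers summed to 204 CPM in knockout replicate 1, against 209 CPM in the nearest knockout library. No group of the 10 metalloproteinase and inhibitor genes was among them, Mmp11 and Timp4 in wild type included.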

How the results depend on the processing

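Under the 17 alternatives, Mmp2, Mmp3, Mmp11, Mmp14, Mmp19, Timp3 and Timp4 kept their direction. Mmp9, Timp1 and Timp2, all near 0, did not: Mmp9 ranged from -0.09 to 0.36, Timp1 from -0.47 to 0.08 and Timp2 from -0.07 to 0.06 (log2). Leaving out 1 library at a time gave between 11 and 1325 called genes (270 with all libraries), 1 to 3 called members (3), 0 to 3 called ADAM and ADAMTS genes (1), 0 to 5 called activators and partners (3) and 0 to 3 called matrix substrates (1). The fewest genes, 11, were called without knockout replicate 2 and the most without wild-type replicate 3. DESeq2 called 1135 genes, 4 members (Mmp19 as well), 3 ADAM and ADAMTS genes, 7 partners and 2 substrates. Voom with quality weights called 2556 genes, 5 members (Mmp2 and Mmp19 as well), 1 other Mmp gene, 3 ADAM and ADAMTS genes, 7 partners and 4 substrates. Without a filter 502 genes, 2 ADAM and ADAMTS genes and 6 partners were called. At equal depth 0 ADAM and ADAMTS genes were called, and 2 substrates without the robust step. The causes were not tested. Flg passed in every alternative. No paired analysis was possible because the labels give no replicate numbers. Depth limits the genes near 0 reads, 10 of those listed being untested, and at equal depth 203 genes were called.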
